A study of Homo sapiens with 9 samples.

Results

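The midbrain floor plate identity genes examined here are FOXA1, FOXA2, SHH, CORIN, LMX1A, LMX1B, MSX1, OTX2 and EN1. They were taken by gene symbol from the deposited tables, 9 genes of 46427, and all 9 passed the filter on low counts that left 20685 genes for testing. The samples were 9 RNA sequencing libraries of H9 cells, an established line of human embryonic stem cells (hESC), in 3 groups of 3 biological replicates: undifferentiated hESC, untreated neural progenitor cells (NPC) at day 11 of differentiation towards midbrain dopaminergic neurons (control NPC), and day 11 NPC exposed to bafilomycin A1 (BafA1 NPC). All NPC, treated or not, had been made with LDN193189 at 200 nM and SB431542 at 10 µM, inhibitors of BMP and TGF-beta receptors, with purmorphamine at 2 µM, an agonist of the Hedgehog transducer Smoothened, and with CHIR99021 at 3 µM, an inhibitor of GSK3. BafA1, which blocks the vacuolar proton pump and with it the breakdown of autophagosomes in lysosomes, was used at 10 nM, with each exposure lasting 6 h. The days on which the sequenced cells received it were not given in the sources used here. All cells came from a single line, and the labels do not say which libraries were grown or sequenced together.

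The floor plate is the strip of cells at the ventral midline of the neural tube. SHH secreted there patterns the neighbouring tissue, and FOXA2, a forkhead factor, acts both as a target and as an activator of SHH in these cells. In the midbrain, unlike the hindbrain and spinal cord, floor plate cells are neurogenic and give rise to dopaminergic neurons. There FOXA1 and FOXA2 act together with the LIM homeodomain factors LMX1A and LMX1B and with MSX1. OTX2 is a factor of forebrain and midbrain, and EN1 marks the posterior midbrain and the first rhombomere. CORIN, a transmembrane serine protease, is used as a surface marker to isolate these progenitors.

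RefSeq promoter sequences (GRCh38.p14) were matched for 7 of the 9 genes, all but FOXA2 and EN1. The 250 bases before the transcription start are shown for 3 genes with separated levels in BafA1 and control NPC, FOXA1 and LMX1B, which were lower in BafA1 NPC, and MSX1, which was higher. They lie at chr14:37595250-37595499, minus strand (FOXA1), chr9:126613678-126613927, plus strand (LMX1B) and chr4:4859415-4859664, plus strand (MSX1). Capitals mark a match to a forkhead (FOXA) motif searched as TGTTTNC on both strands.
FOXA1: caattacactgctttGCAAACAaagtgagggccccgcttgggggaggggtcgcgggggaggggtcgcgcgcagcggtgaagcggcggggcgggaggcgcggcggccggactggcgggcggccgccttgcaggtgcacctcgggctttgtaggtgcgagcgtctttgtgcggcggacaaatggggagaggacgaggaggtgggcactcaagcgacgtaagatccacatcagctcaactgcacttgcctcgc
LMX1B: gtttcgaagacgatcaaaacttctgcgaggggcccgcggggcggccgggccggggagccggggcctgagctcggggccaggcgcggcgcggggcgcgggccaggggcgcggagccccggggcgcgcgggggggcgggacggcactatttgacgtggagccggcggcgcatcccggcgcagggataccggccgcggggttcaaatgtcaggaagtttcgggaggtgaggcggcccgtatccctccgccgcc
MSX1: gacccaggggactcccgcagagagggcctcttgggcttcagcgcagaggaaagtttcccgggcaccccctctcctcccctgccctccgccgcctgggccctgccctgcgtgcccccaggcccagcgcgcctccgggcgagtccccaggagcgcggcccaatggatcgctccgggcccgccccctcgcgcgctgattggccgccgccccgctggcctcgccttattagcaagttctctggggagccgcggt
The FOXA1 window held 1 match, GCAAACA, on the opposite strand to the motif as written. The LMX1B and MSX1 windows held none. Of 35116 RefSeq promoter windows of the same length, 15.5% held at least 1 such match, so that a match is common. None of these 3 windows held the OTX motif TAATCC (5.62% of all windows), the homeodomain motif TAATTA (4.35%), the TCF/LEF motif CTTTGAT (2.26%) or the GLI motif TGGGTGGTC (0.199%), each searched on both strands. The windows were rich in G and C, at 67.2% in FOXA1, 76.4% in LMX1B and 74% in MSX1, against a median of 58% over all windows. A match or its absence describes these letters only.

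Library totals were 43124679 to 69703791 counts, so that 3 counts, the floor used for genes without counts, corresponded to 0.0461 to 0.0731 CPM (counts scaled to a common library total). Levels of a gene are given as CPM scaled by the TMM method, and levels of different genes are compared only as FPKM, which divides by length. Changes are edgeR log2 changes with their standard error (SE), and a gene was called at a Benjamini-Hochberg adjusted p under 0.05 over all genes tested. POU5F1, the pluripotency factor, was at 2130 to 2397 CPM in hESC and had no count in control NPC and 1 count in BafA1 NPC, and all 10 pluripotency markers were lower in control NPC than in hESC. All 10 neural progenitor markers were higher in control NPC than in hESC, with a summed level of 6527 to 7248 CPM against 655 to 708 CPM. Most of that sum in control NPC was VIM, at 5104 ± 469 CPM against 85.2 ± 13.0 CPM in hESC (SD, n = 3). PAX6 and HES5 reached only 0.380 and 0.381 CPM. Of 10 mesenchyme markers 9 were tested, and all 9 were also higher in control NPC than in hESC. Their summed level was 1642 to 2723 CPM against 178 to 194 CPM, so the rise was not confined to neural markers. The libraries are from bulk cultures, in which fewer cells of a type and less RNA per cell cannot be told apart.

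All 9 genes were called higher in control NPC than in hESC. Over all genes tested, 33% were called higher and 31.6% lower in the same comparison, 64.5% in all. FOXA1, EN1, CORIN, LMX1A, LMX1B and MSX1 passed the filter on low counts only through their NPC libraries, so that the count of 9 is a description. The 9 genes started from different levels. FOXA2 and OTX2 were already expressed in hESC and rose less than 2-fold, whereas the other 7 were at or near 0 in hESC. The 9 genes were also all higher in BafA1 NPC than in hESC, against 35.5% of all genes called higher and 34.8% called lower (70.4% in all), a comparison that shares its libraries with the others.

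Between BafA1 and control NPC, FOXA2 and MSX1 were called higher in BafA1 NPC, FOXA1 and LMX1B were called lower, and SHH, CORIN, LMX1A, OTX2 and EN1 were not called. Of all genes tested, 20.8% were called higher and 20.7% lower, so that the share of called members, 4 of 9, was close to the background of 41.5%. The median log2 change was -0.05 over the 9 genes and 0 over all genes tested. Without TMM scaling (library size alone) the calls over all genes split into 3104 higher and 5681 lower in place of 4309 and 4277, and the median over all genes moved by -0.12. With limma on log2(FPKM + 1), also scaled by library totals, they split into 2941 higher and 5729 lower. The direction of these 4 genes was the same under both.

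**Figure D1:**
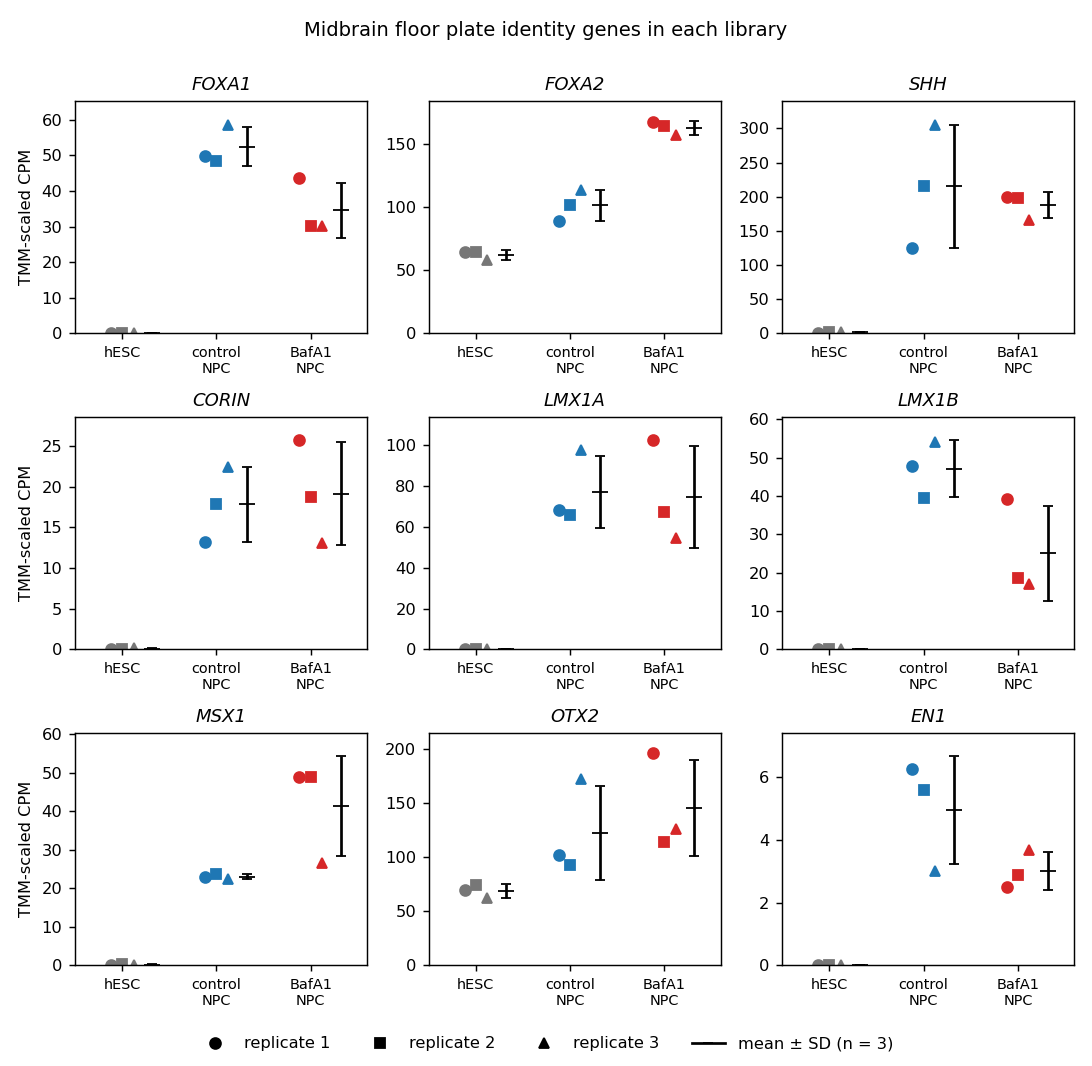
TMM-scaled CPM of each gene (vertical axis, from 0, with a separate scale per gene) in the 3 libraries of hESC, control NPC and BafA1 NPC; symbols stand for replicates and the bar for the mean ± SD of n = 3. FOXA2 and OTX2 are the genes with a visible level in hESC. FOXA1, FOXA2, LMX1B and MSX1 are those called between BafA1 and control NPC, where 41.5% of all genes tested were called.

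SHH (Entrez gene 6469, chr7:155799980-155812463) encodes the secreted ligand Sonic hedgehog. In hESC its level was 1.28, 2.15 and 1.48 CPM in replicates 1, 2 and 3. In control NPC it was 125, 215 and 306 CPM, and in BafA1 NPC 200, 198 and 166 CPM. The control libraries therefore spanned a wider range than the BafA1 libraries and enclosed all 3 of them. SHH was 132-fold higher in control NPC than in hESC (log2 change 7.05 ± 0.34 SE, edgeR adjusted p = 5.8e-09). The change in BafA1 NPC was -0.19 ± 0.25 (95% interval -0.73 to 0.35, edgeR adjusted p = 0.566), which leaves room for changes in either direction. Without control replicate 3 it was 0.15.

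FOXA2 (Entrez gene 3170, chr20:22580998-22585490) is the forkhead factor that defines the floor plate. Its level was 64.1, 64.7 and 57.9 CPM in hESC, 89.0, 101.6 and 113.2 CPM in control NPC and 167.0, 164.2 and 156.7 CPM in BafA1 NPC. The 3 groups formed 3 separate steps. FOXA2 rose by 0.70 ± 0.10 from hESC to control NPC (1.63-fold, edgeR adjusted p = 4.3e-05) and by a further 0.68 ± 0.10 in BafA1 NPC (1.61-fold, edgeR adjusted p = 2.1e-04). The call in BafA1 NPC was kept in all 16 alternatives run, with log2 changes of 0.53 to 0.77.

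FOXA2 is also a gene of the endoderm and the notochord. The defining endoderm factors SOX17 and GATA4 had no count in control NPC, and in BafA1 NPC they had 4 and 0 counts in all. The notochord factor NOTO had no count in control NPC and 4 counts in BafA1 NPC. TBXT had 24 and 4 counts. Of 12 endoderm and notochord markers 8 could be tested, of which 3 were higher and 1 lower in BafA1 than in control NPC. Their summed level rose from 74.9 to 140 CPM in control NPC to 211 to 283 CPM in BafA1 NPC, most of it CXCR4, a chemokine receptor, at 93.2 ± 27.0 and 218 ± 36.5 CPM (SD, n = 3). In hESC, SOX17 and GATA6 had no count. The part of CXCR4 and the other called markers in the FOXA2 level was not tested.

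FOXA1 (Entrez gene 3169, chr14:37589552-37595249), the paralog of FOXA2, behaved differently in both comparisons. It had no count in any hESC library. In control NPC it was at 49.9, 48.5 and 58.6 CPM, at least 1030-fold higher than the floor of 3 counts per library. In BafA1 NPC it was at 43.5, 30.2 and 30.05 CPM, below every control library. FOXA1 fell by 0.60 ± 0.15 in BafA1 NPC (edgeR adjusted p = 0.0104), and the call was kept in all 16 alternatives, with log2 changes of -0.81 to -0.50. The smallest drop was in BafA1 replicate 1.

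The FPKM ratio of FOXA1 to FOXA2 within a library, which does not move with library scaling, was 0.399, 0.341 and 0.369 in control NPC and 0.170, 0.130 and 0.136 in BafA1 NPC. It was 2.56-fold lower in BafA1 NPC, with no overlap between the groups (difference of log2 ratios -1.36, exact two-sided permutation p = 0.1, the smallest that 3 against 3 libraries allow, 0.2 after Benjamini-Hochberg adjustment over 8 pairs). In every BafA1 library the FPKM of FOXA1 was below, and that of FOXA2 above, every control library. The separation of the ratio and its p were therefore fixed by these levels and add no support to the 2 calls. The forkhead paralogs changed in opposite directions in the same 3 libraries.

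CORIN (Entrez gene 10699, chr4:47594001-47838067) was at 0, 0 and 0.153 CPM in hESC, with 9 counts in all. It was at 13.2, 17.9 and 22.4 CPM in control NPC and at 25.7, 18.7 and 13.1 CPM in BafA1 NPC. The ratio of control NPC to hESC was 353, with a 95% counting interval of 186 to 771. In NPC the groups covered nearly the same range, and the change in BafA1 NPC was 0.10 ± 0.31 (95% interval -0.58 to 0.79, edgeR adjusted p = 0.821). Its sign depended on the libraries used.

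LMX1A (Entrez gene 4009, chr1:165201867-165356715) is the LIM homeodomain factor that specifies midbrain floor plate progenitors. It had 20 counts in all hESC libraries together and stood at 68.2, 66.1 and 97.7 CPM in control NPC, a ratio of 688 (95% counting interval 446 to 1127). In BafA1 NPC it was at 102, 67.1 and 54.5 CPM, a range that encloses the control libraries. The change was -0.05 ± 0.24 (95% interval -0.58 to 0.48, edgeR adjusted p = 0.894).

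Its paralog LMX1B (Entrez gene 4010, chr9:126613928-126701032) had 4 counts in all hESC libraries together, and the ratio of control NPC to hESC was 2097 (95% counting interval 819 to 7696). In control NPC it was at 47.8, 39.4 and 54.1 CPM and in BafA1 NPC at 39.3, 18.7 and 17.1 CPM. BafA1 replicate 1, at 39.3 CPM, was next to the lowest control library, while the other BafA1 libraries were at less than 20 CPM. LMX1B fell by 0.91 ± 0.28 (edgeR adjusted p = 0.0200). The call was lost without BafA1 replicate 2 (adjusted p = 0.076), without BafA1 replicate 3 (0.080), without control replicate 3 (0.059) and with DESeq2 (0.094). Without BafA1 replicate 1 the change was -1.39.

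The ratio of LMX1A to LMX1B per length was 2.61, 3.01 and 3.27 in control NPC and 4.72, 6.53 and 5.71 in BafA1 NPC. It was 1.90-fold higher in BafA1 NPC, again without overlap (exact two-sided permutation p = 0.1, adjusted 0.2). LMX1A itself was not called, and the call of LMX1B was lost in the 4 alternatives above. The ratios of SHH to FOXA2 and of LMX1A to FOXA2 were lower in every BafA1 library than in every control library. The differences were 0.79 and 0.77 on the log2 scale (exact two-sided permutation p = 0.1 each, adjusted 0.2). Both ratios have FOXA2 as denominator, which was called higher in BafA1 NPC, while SHH and LMX1A were not called. The other 4 pairs, CORIN/FOXA2, MSX1/FOXA2, EN1/OTX2 and LMX1A/OTX2, overlapped between the groups.

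**Figure D2:**
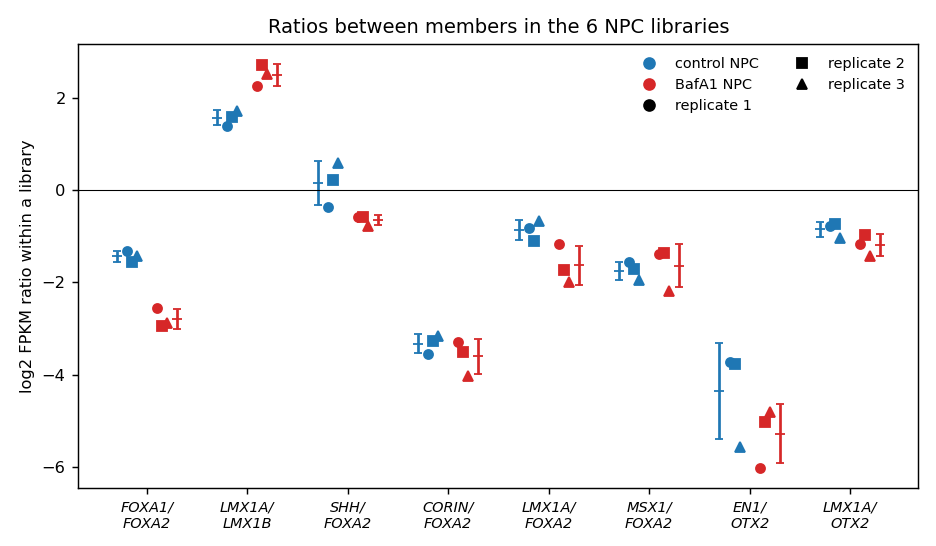
Log2 ratio of FPKM of gene pairs within each library (vertical axis) in control NPC and BafA1 NPC; symbols stand for replicates and bars for the mean ± SD of n = 3. FOXA1/FOXA2, LMX1A/LMX1B, SHH/FOXA2 and LMX1A/FOXA2 separate the groups, and the other 4 pairs overlap.

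MSX1 (Entrez gene 4487, chr4:4859665-4863936) is a homeodomain factor that promotes neurogenesis in the midbrain floor plate. It was at 0.123, 0.221 and 0.102 CPM in hESC, with 26 counts in all, and at 23.0, 23.7 and 22.4 CPM in control NPC, a ratio of 158 (95% counting interval 108 to 241). In BafA1 NPC it was at 48.8, 48.8 and 26.5 CPM. BafA1 replicates 1 and 2 were about level, and replicate 3 was only slightly above the controls, which varied by 2.98% (coefficient of variation). MSX1 rose by 0.84 ± 0.20 in BafA1 NPC (1.80-fold, edgeR adjusted p = 0.0050), and the call was kept in all 16 alternatives, with log2 changes of 0.60 to 1.08.

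OTX2 (Entrez gene 5015, chr14:56799905-56810479), a homeodomain factor of forebrain and midbrain, is also expressed in pluripotent cells. It was at 69.8, 74.1 and 61.7 CPM in hESC, 101, 92.7 and 172 CPM in control NPC and 196, 114 and 126 CPM in BafA1 NPC. It rose by 0.83 ± 0.24 from hESC to control NPC (edgeR adjusted p = 0.0082). In both NPC groups a single library stood well above the others, control replicate 3 and BafA1 replicate 1. The change in BafA1 NPC was 0.25 ± 0.23 (95% interval -0.26 to 0.76, edgeR adjusted p = 0.418). Without control replicate 3 it was 0.58 and was called (adjusted p = 0.036).

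EN1 (Entrez gene 2019, chr2:118842171-118847648), which marks the posterior midbrain and the first rhombomere, was the least expressed of the 9 genes in NPC. It had no count in hESC. In control NPC it was at 6.26, 5.59 and 2.99 CPM, at least 97.3-fold higher than the floor, and in BafA1 NPC at 2.49, 2.88 and 3.66 CPM. Control replicate 3 lay within the BafA1 range, and the other control libraries lay above it. The change in BafA1 NPC was -0.71 ± 0.29 (edgeR adjusted p = 0.0716). Without control replicate 3 it was -0.97 and was called (adjusted p = 0.0084), and it was also called with library size alone (-0.85, adjusted p = 0.036) and with limma on log2(FPKM + 1) (adjusted p = 0.028).

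**Figure D3:**
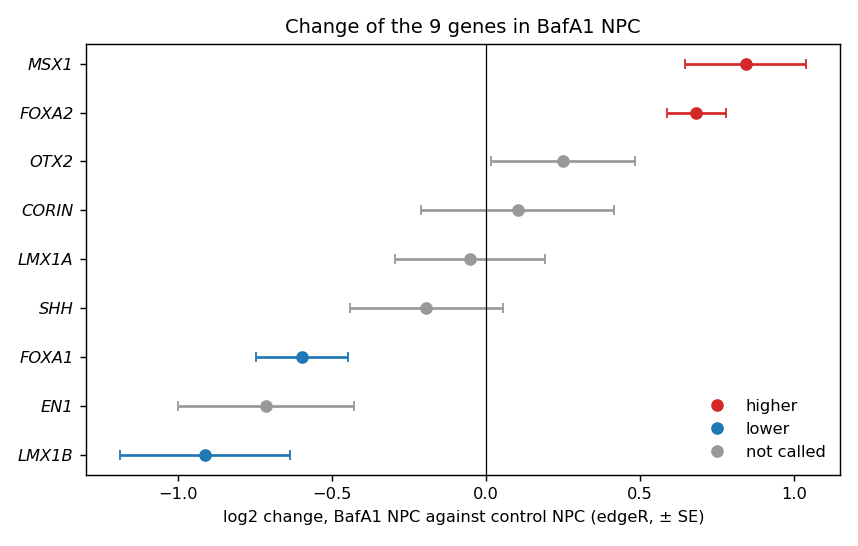
EdgeR log2 change between BafA1 and control NPC (horizontal axis) of each gene, with bars for ± SE from 3 libraries a group; colours give the call at an adjusted p under 0.05. MSX1 and FOXA2 lie above 0, LMX1B and FOXA1 below it, and the other 5 genes were not called.

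The libraries also shared an order. Control replicate 3 held the highest level of 7 of the 9 genes among the control libraries, and BafA1 replicate 1 held the highest level of 8 of 9 among the BafA1 libraries. EN1 was lowest in both of those libraries, and MSX1, which varied little among controls, was also lowest in control replicate 3. BafA1 replicate 3 held the lowest level of 7 of 9. What set these libraries apart was not tested.

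On the FPKM scale, FOXA2 at 21.2 ± 1.02 and OTX2 at 20.5 ± 1.64 (SD, n = 3) led in hESC and overlapped each other, and the next gene, SHH, was at 0.316 ± 0.0742. In control NPC, SHH (42.1 ± 17.3), OTX2 (36.8 ± 12.5) and FOXA2 (35.9 ± 4.02) overlapped at the top. LMX1A followed at 19.9 ± 4.29, FOXA1 at 13.2 ± 1.18 and MSX1 at 10.7 ± 0.478, each separated from the next. LMX1B at 6.71 ± 0.956, CORIN at 3.64 ± 0.888 and EN1 at 1.83 ± 0.655 were lowest, also without overlap between neighbours. In BafA1 NPC the order was FOXA2 (52.0 ± 2.82), OTX2 (39.8 ± 13.7) and SHH (33.4 ± 3.42), which overlapped from each gene to the next. LMX1A (17.4 ± 6.30) and MSX1 (17.2 ± 5.23) overlapped, FOXA1 was at 7.59 ± 1.55, CORIN (4.39 ± 1.22) and LMX1B (3.25 ± 1.71) overlapped, and EN1 was at 1.00 ± 0.212. MSX1 thus passed FOXA1 in mean level, and CORIN came level with LMX1B. The FPKM of CORIN in BafA1 NPC was computed with a shorter length, 0.745 to 0.875 relative to control NPC. In CPM it was at 17.8 ± 4.62 in control NPC and 19.2 ± 6.34 in BafA1 NPC.

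**Figure D4:**
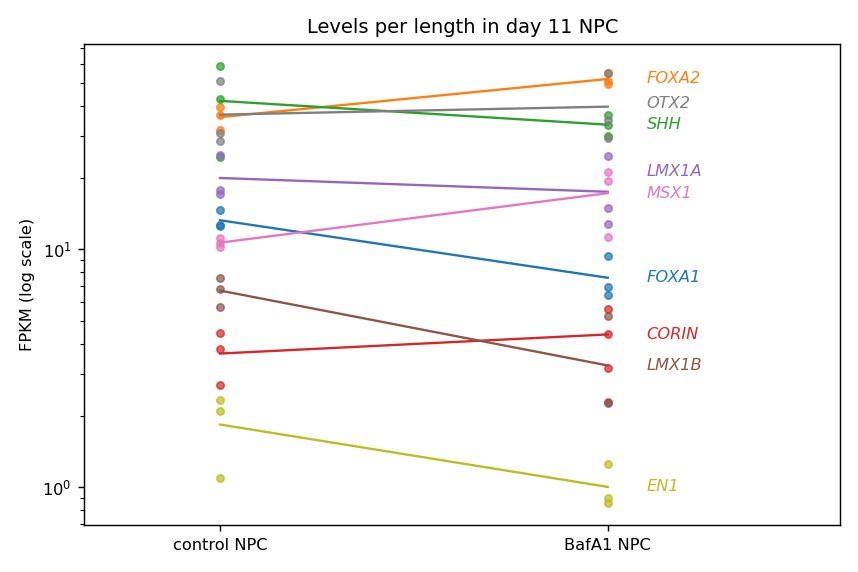
FPKM of the 9 genes (vertical log axis) in control NPC and BafA1 NPC; points are the 3 libraries of a group and lines join the group means. Among the lines that cross are those of MSX1 and FOXA1, of CORIN and LMX1B, and of FOXA2 with SHH and OTX2, and EN1 is lowest in both groups.

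Other genes of the floor plate and of the midbrain were described from lists of 75 genes in all, of which 68 were tested. In control NPC against hESC, 48 were called higher and 7 lower, where 33% and 31.6% of all genes tested were. In BafA1 against control NPC, 14 were called higher and 14 lower, shares close to those over all genes (20.8% and 20.7%). The counts of single lists that follow are to be read against the shares over all genes in the same comparison. The count of 14 higher calls in BafA1 NPC was 8 without control replicate 2 and 9 without control replicate 1. Genes named in the next paragraphs for their change in BafA1 NPC were chosen after their values were seen, unless they are said to follow the rule of smallest adjusted p.

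All 15 other floor plate genes were higher in control NPC than in hESC (median log2 change 5.74, against 0.03 over all genes tested), where 33% of all genes were. By the rule of smallest adjusted p these included the midline guidance cue SLIT1, at 1.02 ± 0.202 CPM in hESC and 148 ± 19.9 CPM in control NPC, and the adhesion molecule ALCAM, at 29.2 ± 1.71 and 163 ± 13.0 CPM. In BafA1 NPC, 4 of the 15 were higher and 1 lower than in control NPC (median 0.20), where 20.8% and 20.7% of all genes were. SPON1, which encodes the floor plate matrix protein F-spondin, was at 41.5, 54.6 and 118 CPM in control NPC and at 256, 178 and 148 CPM in BafA1 NPC, a rise of 1.44 ± 0.31 (edgeR adjusted p = 0.0035). The SPON1 levels of the groups did not overlap. HES1, a Notch effector, and NKX6-1, a ventral homeodomain factor, were also called higher, by 0.59 ± 0.11 and 0.54 ± 0.20, and FOXP2 was lower, by -0.42 ± 0.15. The calls of NKX6-1 and FOXP2 were lost in several alternatives, NKX6-1 on leaving out any control library or BafA1 replicate 2 or 3, and FOXP2 on leaving out control replicate 2 or 3 or any BafA1 library.

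The Hedgehog list held 12 genes of the pathway's receptors, effectors and feedback targets. In control NPC 9 were higher than in hESC and 1 lower (median 1.11). The rule of smallest adjusted p named PTCH1, the SHH receptor and a target of the pathway, at 23.0 ± 1.36 CPM in hESC and 167 ± 18.6 CPM in control NPC, and HHIP, a decoy receptor, which rose from 4 counts to 13.3 ± 1.38 CPM. In BafA1 NPC, 3 were higher and 5 lower than in control NPC (median -0.27), beside 20.8% and 20.7% of all genes. PTCH1 was at 154, 158 and 188 CPM in control NPC and at 294, 208 and 235 CPM in BafA1 NPC, a rise of 0.56 ± 0.13 (edgeR adjusted p = 0.0041). The coreceptors CDON and BOC also rose, by 1.02 ± 0.18 (edgeR adjusted p = 8.8e-04) and 0.28 ± 0.10 (edgeR adjusted p = 0.046). The call of BOC was thus close to the threshold. SMO, the transducer on which purmorphamine acts, was at 111, 111 and 94.2 CPM and at 68.6, 61.4 and 57.4 CPM, a log2 change of -0.76 ± 0.10 (edgeR adjusted p = 1.4e-04). The transcription factors GLI1 (-0.55 ± 0.14) and GLI2 (-0.78 ± 0.18) and DISP1, which releases SHH from cells (-0.39 ± 0.12), were lower as well. The pathway's 2 common readouts, PTCH1 and GLI1, therefore changed in opposite directions.

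Of 15 genes of the dopaminergic lineage 6 were higher and 5 lower in control NPC than in hESC (median 0.14, or 0.09 with genes that had no counts in a group at their bound). By the rule of smallest adjusted p these included DDC, the aromatic amino acid decarboxylase, which rose from 6 counts to 29.3 ± 11.5 CPM. The rule also named CALB1, a calcium-binding protein, which was lower than in hESC (-3.98 ± 0.19). Also called lower were NR4A2 (-1.66 ± 0.30), SLC6A3 (-2.69 ± 0.66), SLC18A2 (-2.87 ± 0.35) and ALDH1A1 (-6.02 ± 0.75), and PITX3 was not called. In BafA1 NPC, 2 were higher and 1 lower than in control NPC (median 0.39). TH, the rate-limiting enzyme of dopamine synthesis, had 4 counts in control NPC and 104 in BafA1 NPC, a ratio of 26.5 (95% counting interval 10.4 to 97.4). It stayed low, at 0.632 ± 0.127 CPM (SD, n = 3). KCNJ6, which encodes the potassium channel GIRK2, was at 0.789, 0.760 and 1.04 CPM in control NPC and at 5.03, 5.70 and 6.86 CPM in BafA1 NPC, a rise of 2.76 ± 0.30 (edgeR adjusted p = 5.3e-05). CALB1 was lower in BafA1 than in control NPC, by -0.60 ± 0.20.

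Neighbouring territories gave further values. Of 13 genes of the midbrain-hindbrain boundary 10 were tested, with 4 higher and 1 lower in control NPC than in hESC (median 0.81) and 1 higher and 2 lower in BafA1 than in control NPC (median -0.51). OTX1, a relative of OTX2, was at 11.0 ± 1.32 CPM in control NPC and 6.17 ± 1.66 CPM in BafA1 NPC, a log2 change of -0.84 ± 0.18 (edgeR adjusted p = 0.0033). Of 10 hindbrain and spinal genes 7 were tested. All 7 were higher in control NPC than in hESC (median 9.98, or 5.46 with genes that had no counts at their bound), and in BafA1 NPC none was higher and 4 were lower than in control NPC (median -0.48). HOXB2 was at 2.89 ± 0.513 CPM in control NPC and 0.464 ± 0.118 CPM in BafA1 NPC (-2.64 ± 0.30, edgeR adjusted p = 1.3e-04), and HOXB1 at 2.24 ± 0.726 and 0.220 ± 0.124 CPM (-3.30 ± 0.44, edgeR adjusted p = 3.3e-04). Of 10 genes of the diencephalon and subthalamic region 9 were tested, with 7 higher in control NPC than in hESC (median 3.92, or 3.78 at the bounds) and 4 higher and 1 lower in BafA1 than in control NPC (median 0.42). Among them NKX2-1, a ventral forebrain factor, was at 8.16 ± 3.79 CPM in control NPC and 17.1 ± 3.37 CPM in BafA1 NPC (1.06 ± 0.29, edgeR adjusted p = 0.015), a call lost without control replicate 2 or BafA1 replicate 2.

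Markers of other cell types moved in the same libraries. Between BafA1 and control NPC, 6 of 10 neural progenitor markers were higher and 1 lower, and their summed level was 9687 to 12584 CPM against 6527 to 7248 CPM, most of it the intermediate filament gene VIM. Of 10 mesenchyme markers 9 were tested, with 4 higher and 2 lower, and a summed level of 3113 to 3483 CPM against 1642 to 2723 CPM. Most of that sum was the collagen genes COL1A1 and COL1A2, which were called higher (0.70 ± 0.17 and 0.58 ± 0.15), while the matrix proteoglycan genes LUM and DCN were called lower (-1.67 ± 0.14 and -3.45 ± 0.50). FOXF1 of that list never reached 3 counts in a library. Of 10 neuron markers 2 were higher and 1 lower, with summed levels of 730 to 785 CPM in BafA1 NPC and 710 to 790 CPM in control NPC. Of 12 roof plate and neural crest markers 11 were tested, with 1 higher and 1 lower, and 5 of 7 choroid plexus and ependyma markers, with 1 higher. The roof plate and neural crest markers summed to 66.5 to 83.8 CPM in control NPC and 64.3 to 68.9 CPM in BafA1 NPC. FOXD3 had no count in either NPC group and SOX10 had none in control NPC and 15 in BafA1 NPC, while TWIST1, PAX3 and SNAI2 were expressed in both, TWIST1 at 30.1 ± 6.7 and 23.1 ± 1.07, PAX3 at 4.73 ± 0.377 and 4.93 ± 0.623 and SNAI2 at 18.2 ± 3.83 and 24.5 ± 4.22 CPM in control and BafA1 NPC. Of the 10 pluripotency markers 2 were higher and 2 lower. The part of these markers in the changes of the 9 genes was not tested.

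Genes that lie next to the 9 genes were taken within 50 kb in the RefSeq annotation. Of 9 such genes tested, 3 were higher and 1 lower in BafA1 than in control NPC, where 41.5% of all genes were called. FOXA2 has the noncoding gene LINC00261 at 2.36 kb, singled out here after its values were seen. LINC00261 was at 16.2, 20.03 and 17.2 CPM in hESC, 211, 266 and 281 CPM in control NPC and 139, 147 and 135 CPM in BafA1 NPC. It rose with FOXA2 from hESC to control NPC, by 3.83 ± 0.13 (edgeR adjusted p = 2.8e-10). In BafA1 NPC it fell by 0.85 ± 0.11 (edgeR adjusted p = 1.7e-04), while FOXA2 rose. The call was kept in all 16 alternatives, with log2 changes of -0.99 to -0.77.

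**Figure D5:**
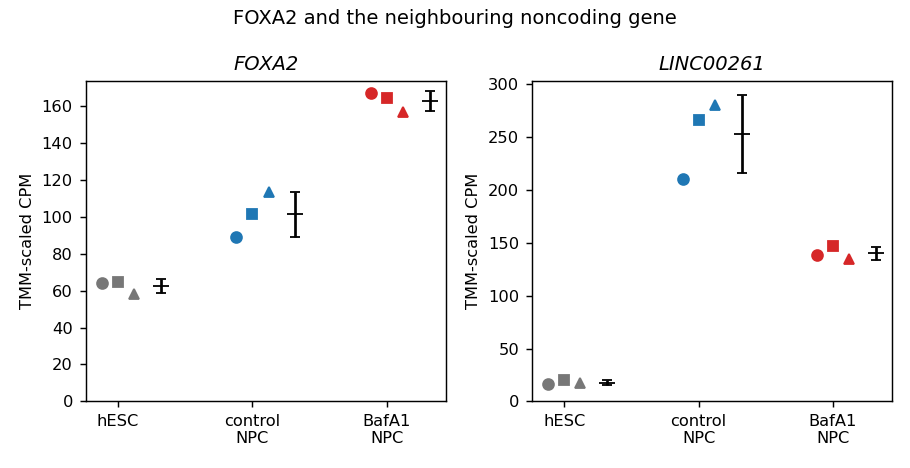
TMM-scaled CPM (vertical axes, from 0) of FOXA2 and of LINC00261 in the 3 groups; symbols stand for replicates (circle 1, square 2, triangle 3) and bars for the mean ± SD of n = 3. FOXA2 steps up from group to group, while LINC00261 is highest in control NPC and lower in all 3 BafA1 libraries.

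Overlap of exons with other genes was small for the 9 genes. In GENCODE, FOXA1 shares 0.402% of its exon bases with TTC6 on the opposite strand, LMX1A shares 4.18% with a noncoding gene on the opposite strand, and FOXA2 shares 2.69% with a noncoding gene on the same strand. The kit kept strand, but the use of strand in counting was not given in the sources used here. TTC6 was at 15.8 ± 6.86 CPM in control NPC and 15.3 ± 4.70 CPM in BafA1 NPC, with a change of -0.05 ± 0.29 that was not called and whose sign depended on the libraries used.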

How the data were processed

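Messenger RNA was measured in 9 libraries made with a stranded kit, per the labels' protocols. The submitters' processing notes name Trimmomatic, a read trimmer, and the build GRCh38. Aligner and counter were not given in the sources used here. For each gene the authors deposited whole-number read counts, not normalised, and FPKM values, per the file headers. The columns named as control were taken as the untreated NPC, the only group left for them. Count over FPKM was constant across libraries, within 0.5% after scaling per library, in 98.3% of 2231 single-transcript genes.

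Counts were tested with edgeR 4.0.16 in R 4.3.3: filterByExpr, TMM scaling, a quasi-likelihood fit over all 9 libraries with a term for each group, two-sided tests and Benjamini-Hochberg adjustment over 20685 genes. The script was tested on simulated counts with known changes. SE was the log2 change divided by the root of its F statistic, and 95% intervals used the t distribution. Where the hESC libraries had no count, folds are lower bounds against 3 counts per library, and counting intervals are exact and cover counting error only. P-values measure the spread between these labelled biological replicates. Alternatives were other scalings, no filter, DESeq2 1.42.0, limma 3.58.1 on log2(FPKM + 1) and log2(FPKM + 0.1), only the 2 groups compared, a replicate block, leaving out each library, and, added after seeing the data, offsets for GC content and length. Outside the 9 genes, the rule took from each list the 4 genes of smallest adjusted p over both comparisons, and the 3 genes most correlated with each of SHH, FOXA2, LMX1A and EN1. The members, lists and rules were chosen with earlier results of these data known. Positions and promoters are from RefSeq (GRCh38.p14, 1-based). Some genes of the lists are counted but their values are not reported here.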

Additional observations from a re-analysis of the deposited data

How the results depend on the processing

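The calls of all 9 genes against hESC, in control and in BafA1 NPC, and those of FOXA1, FOXA2 and MSX1 in BafA1 against control NPC were kept in the 16 alternatives run for each. In BafA1 against control NPC, 2 of the 9 genes were called lower, but 1 with DESeq2, 3 with library size alone and with limma on FPKM at either pseudocount, and 1 to 2 on leaving out single libraries. Those called higher were 2, but 3 without control replicate 3. Genes of the lists called higher numbered 14, but 9 with library size alone, 9 with the replicate block and 8 to 18 on leaving out single libraries, lowest without control replicate 2. For SHH, CORIN, LMX1A, OTX2 and TTC6, which were not called, the sign of the log2 change reversed in some alternatives. On leaving out single libraries, SHH ranged from -0.47 to 0.15, CORIN from -0.16 to 0.32, LMX1A from -0.34 to 0.15, OTX2 from -0.015 to 0.58 and TTC6 from -0.32 to 0.35. CORIN was -0.00966 with library size alone, and TTC6 was 0.10 with GC and length offsets and 0.11 with those offsets and the replicate block. The cause was not tested. The difference in the log2 ratio of CORIN to FOXA2 was -0.28 from FPKM and -0.61 from counts. Same-numbered libraries of different groups did not deviate together (correlations of deviations -0.061 to 0.149), so the numbers were not taken as pairs. Under the replicate block the calls of the 9 genes were as without it, and 4112 genes were higher and 4130 lower in BafA1 than in control NPC. GC values were available for 84.5% of tested genes. Low counts limit the precision of EN1, with 118 to 331 counts per NPC library, and of list genes such as TH, with 4 counts in control NPC.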

Other observations

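Among the 9 genes, FOXA1 and LMX1B had the most alike levels over the 6 NPC libraries, with a Pearson r of 0.985 of log2 CPM. FOXA2 and EN1 had the most opposed, at -0.84. These are descriptions over 6 libraries that share 2 groups and their sequencing depth. Of 11435 other protein-coding genes with a mean of at least 5 CPM in control NPC, those most like SHH were GDPD1 (r = 0.998), ZEB2 (0.986) and TRABD2B (0.979). Those most like FOXA2 were SLC9A5 (0.998), PLEKHG4 (0.996) and RFX2 (0.996), and 1139 genes had an r over 0.9 with FOXA2. Those most like LMX1A were PCDHA4 (0.995), TRANK1 (0.980) and TCEANC2 (0.975), and those most like EN1 were GAL3ST3 (0.991), PRPS2 (0.986) and IDH3A (0.982).

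CORIN stood out in the ratio of its count to its FPKM, which follows the length used for the gene in computing FPKM. Relative to control NPC (0.977 to 1.02), this length was 0.745 to 0.875 in the BafA1 libraries. As the counter is not known, whether CORIN transcripts were shorter in BafA1 NPC was not tested. FOXA1 was at 1.004 to 1.097. The other 7 genes stayed within 0.991 to 1.01 in both groups.

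Within 50 kb of the 9 genes lay 16 annotated neighbours, of which 9 were tested. In BafA1 against control NPC 3 were called higher and 1 lower, where 20.8% and 20.7% of all genes were (41.5% in all). The share of neighbours called was thus close to that over all genes. RXRG, a retinoid receptor gene 44.2 kb from LMX1A, had no count in hESC and was at 0.847, 1.47 and 3.10 CPM in control NPC and at 9.78, 5.27 and 4.49 CPM in BafA1 NPC (1.85 ± 0.45, edgeR adjusted p = 0.0087), while LMX1A was not called. RBM33, 18.5 kb from SHH, was at 78.9 ± 8.35 CPM in control NPC and 122 ± 9.51 CPM in BafA1 NPC (0.63 ± 0.09, edgeR adjusted p = 3.2e-04), while SHH was not called. Both neighbours were chosen after their values were seen.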
